A study of Mus musculus with 12 samples.

Results

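Lymphoid lineage genes were followed in RNA-seq of mouse fetal liver Ter119+ cells, Ter119 being a surface marker of erythroid cells. They were the genes of the series table with the symbols Il7r, Cd247, Rag1, Rag2, Ebf1, Pax5, Cd3e, Cd3g, Tcf7 and Dntt. These 10 symbols matched 11 rows of 38250 genes, since Ebf1 has a further row annotated as a pseudogene, which held 0 in all 12 libraries and is left aside. Fetal livers of e14.5 embryos came from CD1 mice that were wild type for IKAROS (IkWT) or homozygous for a germ-line deletion of the last translated exon of its gene (IkNull), and the cells were cultured with 2 U/mL erythropoietin for 48 h on OP9, a bone marrow stromal line, or on OP9-DL1, the same line made to express the NOTCH ligand Delta-like 1. This gave 4 groups of 3 libraries each, IkWT/OP9, IkWT/OP9-DL1, IkNull/OP9 and IkNull/OP9-DL1. Replicates are numbered 1, 3 and 4 in IkWT and 1, 2 and 3 in IkNull, and the same number within a genotype was taken as the same culture on both stromas. A count summed over the IKAROS gene cannot show the loss of 1 exon, so the genotypes rest on the labels.

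IL-7 receptor signalling, the RAG recombinase and the pre-B and pre-T cell receptors carry lymphoid progenitors through the steps at which antigen receptor genes are rearranged. IKAROS is a zinc finger DNA-binding protein required for B cell development, and mice homozygous for this deletion lack B cells. OP9-DL1 cells are used to drive progenitors into the T lineage through NOTCH. In an erythroid population these genes are therefore read as traces, and the design asks how the traces differ with IKAROS and with the NOTCH ligand.

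The values are read counts per gene divided by a size factor for the library, called normalized counts below. Libraries held between 18.3 and 30.0 normalized counts in units of 1e6, and 11 erythroid genes made up 14.6% to 23.6% of each library, so the erythroid label held. The lymphoid genes lay far below this. Per kilobase of exon, the mean over 12 libraries was 17.9 normalized counts for Il7r, 1.41 for Cd247, 1.23 for Tcf7, 1.12 for Ebf1, 0.616 for Rag1, 0.490 for Cd3g, 0.246 for Dntt, 0.177 for Rag2 and 0.115 for Pax5. Cd3e had no read in any of the 12 libraries, where a count of 0 allows up to 3 reads in a library. Each gene in this order overlapped its neighbour across libraries. Il7r, Cd247 and Ebf1, 3 of the 10, reached the mean of 5 normalized counts set for testing, and the other 7 did not.

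Promoter windows are shown for the 2 genes passing the test in some comparison and 2 genes at or near 0 in IkNull cells. They are from RefSeq on GRCm38.p6, 5′ to 3′ on the strand of the gene. Bases that GENCODE places in an exon of the same gene are left out. All 10 genes matched the promoter table, with 12 windows of 250 bases before a start site. Capitals mark TGGGAA, or TTCCCA on the other strand, a core that both IKAROS and the NOTCH effector RBPJ can bind. Il7r on chromosome 15 (chr15:9529942-9530040, minus strand) encodes the IL-7 receptor alpha chain. The Il7r stretch lies inside the gene as GENCODE places it (chr15:9505788-9530176), outside its exons, and not upstream of that gene. Cd247 on chromosome 1 (chr1:165788431-165788680, plus strand) encodes the CD3 zeta chain. Rag1 on chromosome 2 (chr2:101649533-101649782, minus strand) encodes a recombinase subunit. Pax5 on chromosome 4 (chr4:44710695-44710944, minus strand) encodes the B cell commitment factor.
Il7r: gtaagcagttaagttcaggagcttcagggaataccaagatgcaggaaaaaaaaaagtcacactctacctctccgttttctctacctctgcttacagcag
Cd247: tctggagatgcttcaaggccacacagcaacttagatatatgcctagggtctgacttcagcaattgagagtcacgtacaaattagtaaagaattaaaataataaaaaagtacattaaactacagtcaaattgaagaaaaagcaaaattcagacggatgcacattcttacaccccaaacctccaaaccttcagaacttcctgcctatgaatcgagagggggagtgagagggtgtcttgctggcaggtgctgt
Rag1: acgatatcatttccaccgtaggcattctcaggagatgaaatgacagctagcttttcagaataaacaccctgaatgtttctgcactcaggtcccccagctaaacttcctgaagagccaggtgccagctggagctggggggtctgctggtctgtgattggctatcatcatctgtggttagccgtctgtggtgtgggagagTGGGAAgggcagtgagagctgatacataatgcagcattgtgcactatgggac
Pax5: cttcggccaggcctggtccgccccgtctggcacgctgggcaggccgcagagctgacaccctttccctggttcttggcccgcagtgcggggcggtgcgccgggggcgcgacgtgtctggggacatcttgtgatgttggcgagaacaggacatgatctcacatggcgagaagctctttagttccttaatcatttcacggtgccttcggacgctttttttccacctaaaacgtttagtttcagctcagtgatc
The Rag1 window held the core once and the other 3 printed stretches did not. A window of Cd3g, Cd3e and Ebf1 held it as well, so 4 of the 10 genes had it in a window. It occurs in 21.6% of the 32817 mouse promoter windows of the same length. That share is by window and not by gene, and Ebf1 and Tcf7 each had a further window. A palindromic EBF1 motif, searched as well, was found for 0 of the 10 genes and in 0.780% of all windows. No match says only that these letters are not in the window.

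Il7r was the lymphoid gene with the highest level and was higher in IkNull than in IkWT cells. The gene lies at chr15:9505788-9530176 on the minus strand of GRCm38, and its product pairs with the common gamma chain to bind IL-7. In IkWT/OP9 its normalized counts were 18.2, 50.8 and 21.9 in replicates 1, 3 and 4, and in IkNull/OP9 they were 45.7, 189 and 301 in replicates 1, 2 and 3. On OP9-DL1 they were 4.13, 24.9 and 7.41 in IkWT and 23.4, 122 and 191 in IkNull cells. IkNull replicate 1 was the lowest of its genotype on either stroma and lay below IkWT replicate 3, so the genotypes overlapped on both. The IkWT mean was 30.3 ± 17.8 and the IkNull mean 179 ± 128 on OP9, and they were 12.1 ± 11.2 and 112 ± 84.5 on OP9-DL1 (SD, n = 3 libraries each).

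Each gene was compared with limma on log2(normalized count + 1) in 1 fit over 13769 genes, and was called at a Benjamini-Hochberg adjusted p under 0.05 with a difference of at least 0.8. In IkNull/OP9-DL1 against IkWT/OP9-DL1, Il7r rose by 3.01 ± 0.89 (SE) with an adjusted p of 0.0405, and Cd247 fell, so 1 of the 3 tested lymphoid genes was called higher and 1 lower. Over all genes tested 9.41% were called higher and 4.65% lower in this comparison, which was 1295 and 640 genes, or 719 and 1590 after scaling libraries to an equal total. On OP9 the difference in Il7r was 2.29 ± 0.89 with an adjusted p of 0.116, and 0 of the 3 genes were called, against 6.69% of all genes higher and 2.83% lower (921 and 389 genes, or 579 and 858 after that scaling). Before adjustment over genes, limma gave 0.0249 for Il7r and 0.0312 for Ebf1 on OP9. Both edgeR and DESeq2 on the reads of 10 libraries called 0 of the 3 there as well. Whether the effect of genotype on Il7r differed between the stromas was tested as an interaction, 0.71 ± 1.26 with an unadjusted p of 0.582.

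The Il7r call on OP9-DL1 sat near the threshold. The adjusted p was 0.134 without IkWT/OP9-DL1 replicate 1, 0.111 without IkWT/OP9-DL1 replicate 4, 0.154 without IkNull/OP9-DL1 replicate 2 and 0.131 without IkNull/OP9-DL1 replicate 3. It was 0.0577 without IkWT/OP9 replicate 4 and 0.0539 without IkNull/OP9 replicate 2, which enter only through the shared spread. Without both libraries of a culture it was 0.138 for IkWT replicate 1, 0.150 for IkWT replicate 4, 0.191 for IkNull replicate 2 and 0.135 for IkNull replicate 3, and with edgeR on reads it was 0.127. On OP9, Il7r was called higher without IkNull/OP9 replicate 1 (3.08, adjusted p = 0.0459) and without both libraries of that culture (adjusted p = 0.0132). With a library or culture left out, the Il7r difference ranged from 2.40 to 3.89 on OP9-DL1 and from 1.73 to 3.08 on OP9. An exact permutation test of the mean of each culture over both stromas, 3 cultures against 3, gave p = 0.2 for Il7r (two-sided), where 0.1 is the smallest such a test can give.

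**Figure D1:**
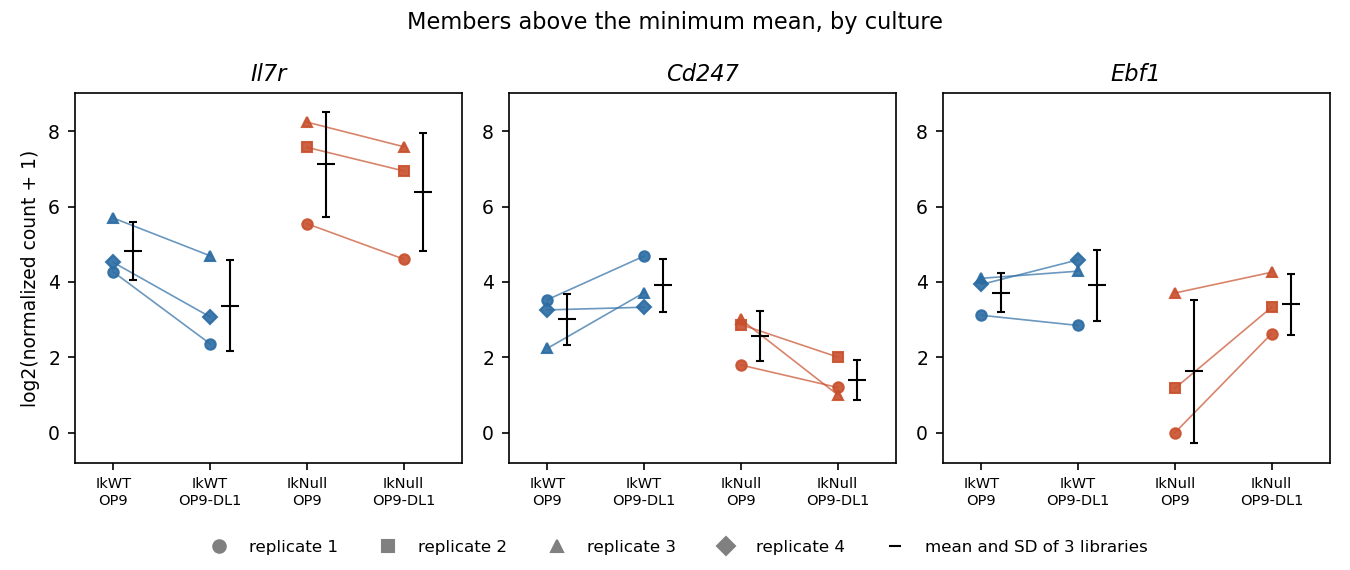
log2(normalized count + 1) of Il7r, Cd247 and Ebf1 in each library, by group (blue, IkWT, and red, IkNull). Lines join the OP9 and OP9-DL1 libraries of the same replicate number, and black bars give the mean and SD of 3 libraries. Il7r falls from OP9 to OP9-DL1 in every culture, and Cd247 goes up in the 3 IkWT cultures and down in the 3 IkNull cultures.

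Il7r was lower on OP9-DL1 than on OP9 in 3 of 3 IkWT and 3 of 3 IkNull cultures. In IkWT cells the difference was -1.45 ± 0.89 with an adjusted p of 1 without regard to culture, and -1.45 ± 0.22 with an adjusted p of 0.00357 (limma) once the replicate number was a block. With the block, Il7r was thus called lower on OP9-DL1 in IkWT cells, as were 1.02% of all genes, with 0.450% called higher. Without it 0 of the 3 tested genes were called, against 0.00726% of all genes higher and 0% lower. In IkNull cells the blocked difference was -0.74 ± 0.22 with an adjusted p of 0.128, and 0 of the 3 genes were called, against 0.508% of all genes higher and 0.225% lower, or 0.0145% higher and 0% lower without the block.

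Median sums of myeloid (macrophage and neutrophil) markers were higher in IkNull than in IkWT cells, as Il7r was. Both sums were also lower on OP9-DL1 than on OP9 in every culture, as Il7r was. In IkNull replicate 2 they were close between stromas, 24668 and 24602 for macrophage genes and 87823 and 84433 for neutrophil genes. The summed normalized counts of 12 macrophage and monocyte genes were 3227 to 11328 in IkWT/OP9, 1960 to 6471 in IkWT/OP9-DL1, 12311 to 24668 in IkNull/OP9 and 7294 to 24602 in IkNull/OP9-DL1. Those of 9 neutrophil genes were 9480 to 50630, 6402 to 28690, 40408 to 87823 and 23002 to 84433 in the same order. Of the 11 tested macrophage genes 5 were called higher in IkNull/OP9-DL1 and of the 9 neutrophil genes 0. In IkNull/OP9-DL1 against IkNull/OP9, 6 of the 11 macrophage genes had a difference above 0, with a median of 0.27. Of the 9 neutrophil genes 0 were above 0 there. In IkWT cells these numbers were 4 (median -0.24) and 0. On OP9 the macrophage sum was 24668 in IkNull replicate 2 and 19446 in replicate 3, while Il7r was higher in replicate 3. The 5 genes whose log2 levels followed Il7r most closely over the 12 libraries, among 9961 genes with a mean of at least 50, were Adam8, a metalloprotease of leukocytes (Pearson r = 0.99), Ly6c2, a surface antigen of monocytes (0.98), and Lilrb4, an inhibitory receptor of myeloid cells, Dgat2, an enzyme of triglyceride synthesis, and Pycard, the inflammasome adaptor (0.97 each). These libraries share genotype, culture and depth. The part of the myeloid markers in the Il7r values was not tested, and more cells of a type cannot be told apart from more RNA per cell in bulk samples. Other parts of the IL-7 receptor pathway were not called in any comparison. Of 9 other genes of the pathway 7 were tested, among them Il2rg, the common gamma chain (61.0 ± 28.3 normalized counts in 6 IkWT and 110 ± 25.7 in 6 IkNull libraries), and Jak3, its kinase (116 ± 58.2 and 179 ± 33.5).

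Rag1 and Rag2 were at or near 0 in IkNull cells. Their products form the recombinase that cuts antigen receptor genes, and both lie side by side on chromosome 2 (Rag1 chr2:101638282-101649501, minus strand, and Rag2 chr2:101624718-101632529, plus strand). Rag1 held 4.79, 21.7 and 11.4 normalized counts in IkWT/OP9 and 2.06, 5.78 and 0.823 in IkWT/OP9-DL1. In IkNull cells its values were 0, 1.26 and 0 on OP9, and 0, 0 and 1.01 when cultured on OP9-DL1. All 3 IkWT/OP9 libraries lay above all 3 IkNull/OP9 libraries, and on OP9-DL1 the groups overlapped because IkWT replicate 4 fell below IkNull replicate 3. In reads, IkWT cells held 65 and IkNull cells 2, a depth-corrected ratio of 0.0467 with a 95% interval of 0.00554 to 0.176 for counting error only. Rag2 held 0.959, 1.86 and 1.90 in IkWT/OP9, 0, 1.74 and 0.823 in IkWT/OP9-DL1, and 0 in all 6 IkNull libraries. It was thus seen in 5 of 6 IkWT libraries, with 10 reads in all. Its IkWT sum was 2.03 times the floor, the 3 reads that a count of 0 allows over the 6 IkNull libraries. The IkNull to IkWT ratio was 0 with a 95% interval of 0 to 0.677 (counting error only).

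Dntt, which encodes the terminal transferase that adds untemplated bases at V(D)J joints, held 0, 3.10 and 2.86 in IkWT/OP9, 0, 0 and 0.823 in IkWT/OP9-DL1, and 0 in all 6 IkNull libraries. This is 9 reads over 3 libraries, and the IkWT sum was 1.89 times the IkNull floor. The IkNull to IkWT ratio of Dntt had a 95% interval of 0 to 0.769 (counting error only). Il7r, Rag1 and Rag2 were lower on OP9-DL1 in 3 of 3 IkWT cultures and Cd247 was higher, against 15.7% of all genes with a count lower and 15.9% higher (11.1% and 7.44% of genes with a mean of 0.5 to 5). In IkNull cultures Il7r and Cd247 were lower in 3 of 3 and Ebf1 was higher, against 10.7% lower and 12.2% higher (6.37% and 12.8%). The difference in Rag1 was -1.81 ± 0.63 in a fit without the minimum mean in IkWT cells (adjusted p = 1, and 0.220 with the replicate block). Of the 9 other genes of V(D)J recombination, which mostly encode the general end-joining machinery, all were tested, and Xrcc6, the Ku70 subunit, fell by 0.90 ± 0.23 in IkNull/OP9-DL1 (adjusted p = 0.0219). It was the only one called in any comparison.

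Pax5, which commits cells to the B lineage, was the gene whose 6 IkWT and 6 IkNull libraries did not overlap. It held 0.959, 4.34 and 2.86 normalized counts in IkWT/OP9, 1.03, 0.578 and 2.47 in IkWT/OP9-DL1 and 0 in every IkNull library. It had 16 reads in IkWT cells, and its IkWT sum was 3.41 times the IkNull floor. The IkNull to IkWT ratio of Pax5 had a 95% interval of 0 to 0.393 (counting error only). This is 1 gene of 10, and 6.69% of all genes with a count had all IkWT libraries above all IkNull libraries, or 0.626% of genes with a mean of 0.5 to 5. Rag2, Pax5 and Dntt were at 0 in all 6 IkNull libraries, which held for 6.24% of all genes with a count and 0.966% of those with a mean of 0.5 to 5. Rag2 and Pax5 were in addition above 0 in 4 or more IkWT libraries, which held for 0.334% and 0.783%.

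In a fit without the minimum mean, which tested 21579 genes, Rag1 (-3.17 ± 0.63, adjusted p = 0.0112), Pax5 (-1.78 ± 0.40, adjusted p = 0.0208) and Rag2 (-1.34 ± 0.35, adjusted p = 0.0416) were lower in IkNull/OP9 by limma, so that 3 of 9 genes were called lower and 0 higher, against 1.58% and 3.93% of all genes. On OP9-DL1 Cd247 alone was called in that fit, lower as were 2.62% of all genes (5.27% were higher), and Il7r missed the threshold (adjusted p = 0.0522). The adjusted p there was 0.182 for Rag1, 0.0891 for Pax5 and 0.189 for Rag2. The quasi-likelihood test of edgeR on recovered reads, a setting chosen after the data were seen, gave adjusted p of 0.118 for Rag1, 0.185 for Pax5 and 0.274 for Rag2 on OP9. Differences of such low genes are understated on the log2(normalized count + 1) scale. By exact permutation of culture means, Rag1, Rag2, Pax5 and Cd3g each gave p = 0.1 (two-sided, 3 cultures against 3), the smallest possible. This value says only that the culture means of the genotypes did not overlap, and the share of all genes reaching it is not given here. The same permutation test gave p = 0.2 for Ebf1, 0.3 for Tcf7 and 0.4 for Dntt.

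**Figure D2:**
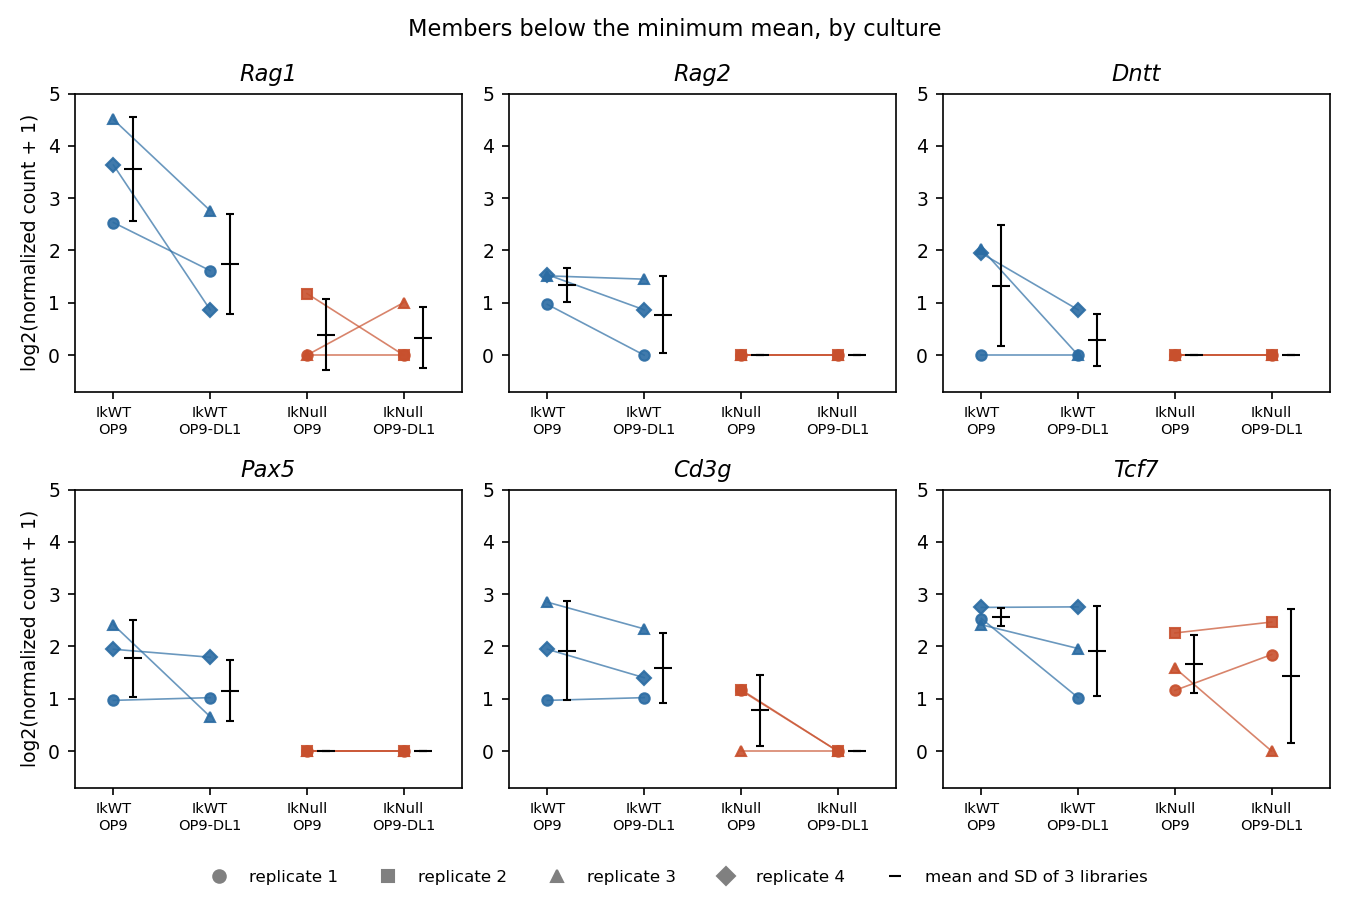
log2(normalized count + 1) of the 6 lymphoid genes below the minimum mean that had any read, drawn as for the tested genes (blue, IkWT, and red, IkNull). All 6 IkNull libraries lie at 0 for Rag2, Dntt and Pax5, and Rag1 is above 0 in 2 of 6.

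Ebf1, which acts upstream of Pax5, was detected in 5 of 6 IkNull libraries. This gene on chromosome 11 (chr11:44617317-45008091, plus strand) held 7.67, 16.1 and 14.3 normalized counts in IkWT/OP9 and 0, 1.26 and 12.1 in IkNull/OP9. On OP9-DL1 it held 6.19, 18.5 and 23.0 in IkWT and 5.19, 9.06 and 18.1 in IkNull cells. The groups overlapped on both stromas, on OP9 through IkNull replicate 3 alone and on OP9-DL1 through IkNull replicates 2 and 3. The difference was -2.09 ± 0.85 on OP9 (adjusted p = 0.132) and -0.50 ± 0.85 on OP9-DL1 (adjusted p = 0.708). Without IkNull/OP9 replicate 3 the OP9 difference was -3.13 with an adjusted p of 0.0250. Ebf1 was higher on OP9-DL1 in 3 of 3 IkNull cultures, by 1.78 ± 0.85, with an adjusted p of 1, or of 0.0772 with the replicate block. In IkWT cultures it was higher in 2 and lower in 1. Beside it, the summed counts of 12 stromal genes were 870 to 1249 in IkNull/OP9 and 1357 to 2305 in IkNull/OP9-DL1. In IkWT cells they were 664 to 802 on OP9 and 854 to 1396 on OP9-DL1. The part of stromal cells in the Ebf1 values was not tested.

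Other B lineage genes gave a mixed picture. Of 21 such genes 12 were tested, and Tcf3, which encodes the E2A factors and is expressed in many cell types, fell in IkNull/OP9-DL1 (-1.17 ± 0.30, adjusted p = 0.0234). Its level over both stromas was 1957 ± 340 in 6 IkWT and 994 ± 293 in 6 IkNull libraries. Igll1, Pou2af1 and Cd79a were chosen here after their values were seen. Igll1, the surrogate light chain lambda 5, held 0 to 17.3 normalized counts in IkWT and 0 in all IkNull libraries. Pou2af1, a B cell coactivator, held 1.03 to 22.9 and 0 to 1.01. Cd79a, a chain of the B cell receptor, held 34.9 ± 10.9 in IkWT and 53.7 ± 17.4 in IkNull libraries, and it was not called. Without the minimum mean, limma called Igll1 (-3.26, adjusted p = 0.0148) and Pou2af1 (-3.22, adjusted p = 0.0260) lower in IkNull/OP9. On OP9-DL1 neither was called (-1.66, adjusted p = 0.148, and -2.12, adjusted p = 0.0989). Of 23 B lineage genes, Ebf1 and Pax5 included, 4 had every IkWT library above every IkNull library. The reverse held for 0, and the shares of all genes with a count were 6.69% and 6.58%. Igll1 and Pou2af1 moved with Rag1 and Pax5, and the part of B lineage genes in those values was not tested.

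Cd247 fell in IkNull cells on OP9-DL1. It encodes the zeta chain that signals for the T cell receptor and for Fc receptors of natural killer cells, and spans chr1:165788681-165877277 on the plus strand. On OP9-DL1 it held 24.8, 12.1 and 9.05 normalized counts in IkWT and 1.30, 3.02 and 1.01 in IkNull cells, without overlap. On OP9 it held 10.5, 3.72 and 8.57 in IkWT and 2.47, 6.31 and 7.03 in IkNull cells, and the groups overlapped. The difference was -2.51 ± 0.56 on OP9-DL1 (adjusted p = 0.0128) and -0.45 ± 0.56 on OP9 (adjusted p = 0.622). The exact permutation test of culture means gave p = 0.1, the smallest possible, which says only that these means did not overlap between genotypes.

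Between stromas Cd247 moved in opposite directions in the genotypes. It was higher on OP9-DL1 in 3 of 3 IkWT cultures, by 0.90 ± 0.56, and lower in 3 of 3 IkNull cultures, by a difference of -1.15 ± 0.56, neither of which was called by limma. In reads, Cd247 held 26 on OP9 and 56 on OP9-DL1 in IkWT cells, and 14 and 4 in IkNull cells. IkNull replicate 1 held 2 reads on OP9 and 1 on OP9-DL1, so the IkNull direction rests on few reads. The interaction was -2.06 ± 0.79 with an unadjusted p of 0.0233 and an adjusted p of 1.00 over all genes, where 0% of genes were called. Before adjustment, 44 genes had a higher and 11 a lower interaction at p under 0.05 and a size of at least 0.8.

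The Cd247 call on OP9-DL1 was lost without IkWT/OP9-DL1 replicate 1 (-2.12, adjusted p = 0.0557), and without both libraries of IkNull replicate 3 (adjusted p = 0.0554) or of IkWT replicate 1 (adjusted p = 0.0528). With edgeR and DESeq2 on the reads of 10 libraries, which leave out IkNull replicate 3, the adjusted p was 0.0626 and 0.0661. The exons of Cd247 overlap those of Pou2f1 on the other strand over 3007 of 5329 bases (56.4%), and the strand setting of the counting is not given in the sources used here. Reads of the pair cannot be told apart in the shared part if strand was not used. Pou2f1, a widely expressed POU factor, held 635 ± 172 normalized counts in IkWT/OP9-DL1 and 753 ± 93.3 in IkNull/OP9-DL1. The genes nearest to Cd247 over the 12 libraries were Cela1, a serine protease (Pearson r = 0.92), Man1a, a mannosidase of the Golgi (0.87), and Acadl, an enzyme of fatty acid oxidation, Padi2, an arginine deiminase, and Tmx4, a thioredoxin-related protein (0.86 each).

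**Figure D3:**
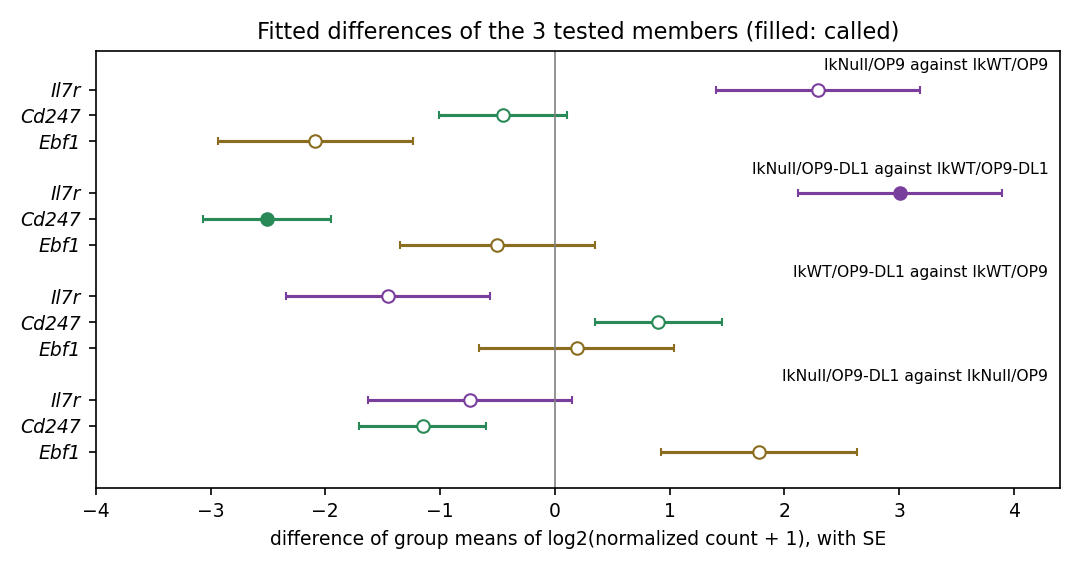
Differences between group means of log2(normalized count + 1) for Il7r, Cd247 and Ebf1 in 4 comparisons, with the SE of the limma fit. Filled points passed the thresholds, which are Il7r at 3.01 and Cd247 at -2.51 in IkNull/OP9-DL1 against IkWT/OP9-DL1.

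Except for Cd3d, which reached 52.0 normalized counts in IkWT cells, the other T cell receptor chains were at low levels or at 0. Cd3g, the CD3 gamma chain, lies on chromosome 9 next to Cd3e, the CD3 epsilon chain without which no T cell receptor reaches the surface. Cd3g held 0.959, 6.20 and 2.86 in IkWT/OP9, 1.03, 4.05 and 1.65 in IkWT/OP9-DL1, 1.24, 1.26 and 0 in IkNull/OP9 and 0 in all 3 IkNull/OP9-DL1 libraries. That is 24 reads in IkWT and 2 in IkNull cells, a ratio of 0.126 (95% interval 0.0145 to 0.509, counting error only). In the fit without a minimum mean the Cd3g difference on OP9-DL1 was -1.59 ± 0.52 with an adjusted p of 0.0785. Cd3d, the CD3 delta chain, chosen here after its values were seen, held 3.84 to 52.0 in IkWT and 1.01 to 7.55 in IkNull libraries (adjusted p = 0.0654 on OP9-DL1). The receptor constant region gene Trac reached 1.24 normalized counts at most and Trbc1 1.30, while Trbc2 held 0 to 1.03 in IkWT and 1.00 to 9.06 in IkNull libraries (difference 1.55 on OP9-DL1, adjusted p = 0.127 without a minimum mean). Ptcra, the pre-T cell receptor alpha chain, was at 0 in all 12 libraries like Cd3e. Of 19 other genes of the receptor complex and its signalling, 10 were tested, and Lat, an adaptor of T cells, mast cells and platelets, rose in IkNull cells by 2.10 ± 0.37 on OP9 (adjusted p = 0.00491) and 2.15 ± 0.37 on OP9-DL1 (adjusted p = 0.00337). Lat held 14.2 ± 8.29 in IkWT/OP9, 7.81 ± 1.86 in IkWT/OP9-DL1, 58.9 ± 8.26 in IkNull/OP9 and 37.5 ± 1.00 in IkNull/OP9-DL1. Beside it, the summed counts of 9 megakaryocyte genes were 919 to 1890 in IkWT and 3372 to 9783 in IkNull libraries, and those of 9 mast cell and basophil genes 83.6 to 1165 and 723 to 2305. The part of these cells in the Lat values was not tested.

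Tcf7, which encodes TCF-1, an early T lineage factor induced by NOTCH in thymic progenitors, did not separate the stromas. It held 4.79, 4.34 and 5.71 in IkWT/OP9, 1.03, 2.89 and 5.76 in IkWT/OP9-DL1, 1.24, 3.78 and 2.01 in IkNull/OP9 and 2.60, 4.53 and 0 in IkNull/OP9-DL1. In IkWT cells it was higher in 1 of 3 cultures and lower in 2, with a difference of -0.65 ± 0.64 and an adjusted p of 1 without the minimum mean. All IkWT/OP9 libraries lay above all IkNull/OP9 libraries for Tcf7, as for Rag1, Rag2 and Pax5, 4 of 10 genes, against 11.7% of all genes with a count and 5.30% of those with a mean of 0.5 to 5. On OP9-DL1 this was so for Cd247, Pax5 and Cd3g, 3 of 10, against 11.8% and 4.83%. Of 5 other T lineage factors tested, 0 were called in any of the 5 comparisons. Tox, a factor of T cell development below the minimum mean and chosen after its values were seen, held 0 to 1.74 normalized counts in IkWT and 3.02 to 20.1 in IkNull libraries, without overlap. In the fit without a minimum Tox was higher in IkNull/OP9 by 3.18 (adjusted p = 0.00749 by limma) and its difference was 1.77 on OP9-DL1 (adjusted p = 0.0791).

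Over the 6 lists of lymphoid genes, 82 were found besides the 10 and 49 of these were tested. On OP9, 2 were called higher, Lat and Nfil3, and 0 lower, and on OP9-DL1 Lat and Nfil3 were called higher and Tcf3 and Xrcc6 lower. Nfil3, a factor needed for natural killer cells and also expressed in other cells, rose by 1.42 ± 0.33 (adjusted p = 0.0214) and 1.45 ± 0.33 (adjusted p = 0.0153). These shares of 4.08% higher on either stroma and 4.08% lower on OP9-DL1 stand beside the 6.69%, 9.41% and 4.65% of all genes above. The median difference of the 49 was 0.40 on OP9 and 0.57 on OP9-DL1, against 0.00 and 0.03 over all genes. None of the 49 was called between stromas in either genotype or in the interaction, where limma called 1 and 2 genes of 13769 between stromas and 0 in the interaction. At an unadjusted p under 0.05, 1 of the 49 passed between stromas in IkWT cells and 0 in the others. Of 15 genes of natural killer and innate lymphoid cells, Ncr1, Prf1 and Tbx21 were at 0 in all 12 libraries and the other 12 were not. Among these, Gzma, a granule protease chosen after its values were seen, was at 0 in all 6 libraries on OP9, and on OP9-DL1 it held 3.47 to 8.23 in IkWT and 0 to 2.60 in IkNull cells. Without a minimum mean Gzma was lower in IkNull/OP9-DL1 (-1.79, adjusted p = 0.0264 by limma), and its difference between stromas in IkWT cells was 2.74 (adjusted p = 0.169). Of the 9 lymphoid genes with any read, the mean over 6 libraries was higher in IkWT cells for 8, all except Il7r, against 46.2% of all genes with a count and 37.5% of those with a mean of 0.5 to 5.

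**Figure D4:**
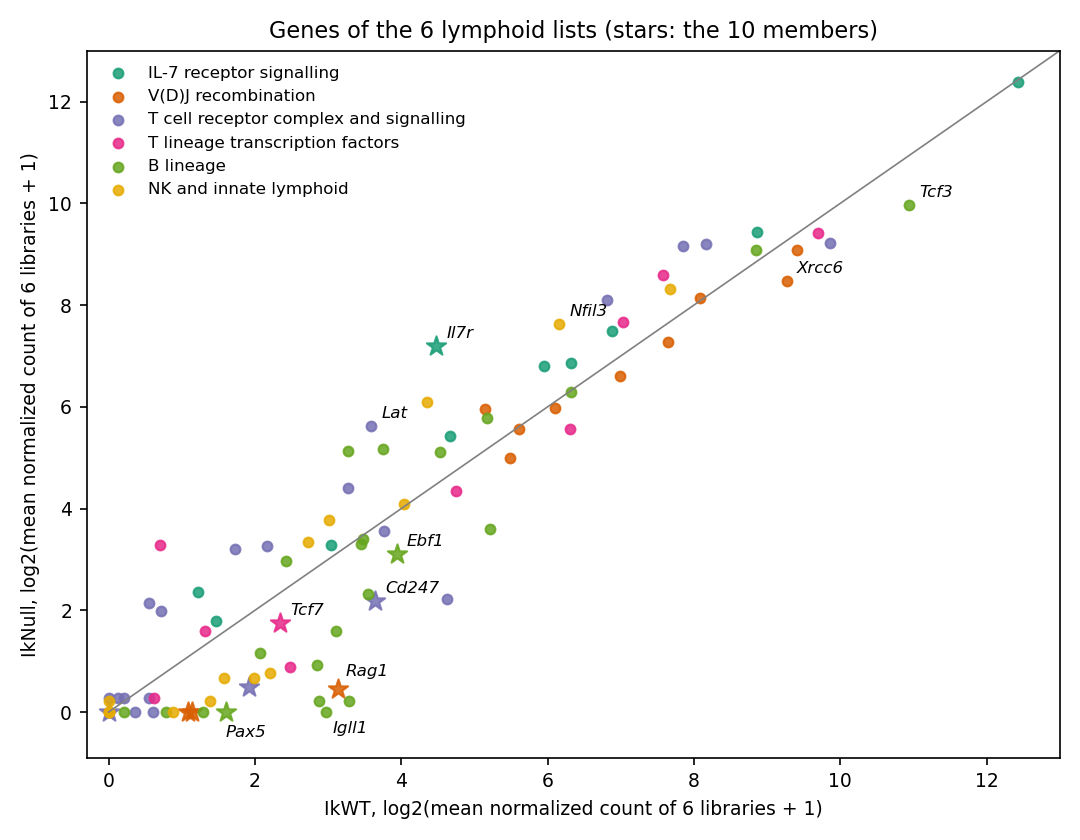
Mean normalized count over 6 IkWT libraries (x axis) and 6 IkNull libraries (y axis) on the scale log2(mean + 1), for the genes of the 6 lymphoid lists. Stars are the 10 genes described here, and the line marks equal levels. Il7r lies above the line, Cd247, Ebf1, Rag1, Tcf7 and Pax5 below it, and Rag2, Pax5, Dntt and Igll1 lie at 0 on the y axis.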

How the data were processed

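RNA from 12 libraries was read on a HiSeq2000 after oligo-dT selection. According to the study's methods, untrimmed reads were mapped to GRCm38/mm10 by TopHat and assigned to genes by htseq-count. The methods describe sorting of Ter119+ cells and the labels a 40 µm filter. Versions in the submitters' processing notes are DESeq2 1.0.19, HTSeq 0.5.3, TopHat2 2.0.9 and CASAVA 1.8. Neither strand setting nor annotation release is given in the sources used here. Signal values deposited by the authors are counts per gene divided by a size factor per library. Tables of the authors' own comparisons (group means, fold changes, p-values) were not used.

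Groups were compared by limma 3.58.1 (R 4.3.3) on log2(normalized count + 1), with all 12 libraries, 4 group means and 13769 genes with a mean of at least 5. In 10 libraries 100% of low values were whole multiples of a step (tolerance 0.01), which gave 19.9 to 31.6 reads per library, in units of 1e6, for edgeR 4.0.16 and DESeq2 1.42.0. The 2 libraries of IkNull replicate 3 were left out of these count tests because their steps lie close to 1. They are part of the limma fits, permutation tests and overlaps, and also of the read sums, ratios and floors. Intervals and floors cover counting error only. The p-values of limma, edgeR and DESeq2 without a block treat libraries as separate, although each culture gave a library on each stroma. Between stromas, p-values with the replicate block measure the spread of differences within cultures. Permutation p-values compare culture means. After removal of group means, libraries of the same number within a genotype correlated across genes at 0.58 to 0.83. With different numbers the range was -0.70 to 0.20, and same numbers were taken to pair OP9 with OP9-DL1. The genotypes share only the numbers 1 and 3 and were not paired, except in the alternative with the replicate block.

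Genes named are the 10 members, up to 4 called genes per list and comparison, and the 5 genes with the closest pattern to a called member. Further genes (pathway partners, low lineage genes and Pou2f1, which overlaps Cd247) were named outside this rule, after their values were seen. The members and lists were chosen with earlier results of these data known. The alternatives were pseudocounts of 0.5 and 5, no minimum or a minimum mean of 20, TMM scaling, rescaling to the same total, a fit of the 2 groups compared, the replicate block, the count tests, and leaving out each library and each culture. The edgeR test on genes with at least 10 reads and the block without a minimum were chosen after seeing the data. Positions are from GENCODE vM21, in which 36345 of 38250 identifiers were found. A gene of the B lineage list is not reported here.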

Additional observations from a re-analysis of the deposited data

Results flagged for a closer look

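Cd247 differed between stromas in opposite directions in the genotypes, higher on OP9-DL1 in each of 3 IkWT cultures and lower in each of 3 IkNull cultures. The IkNull direction rests on few reads, 14 on OP9 and 4 on OP9-DL1. The interaction was -2.06 on the log2 scale in limma, with an unadjusted p of 0.0233 and an adjusted p of 1.00, and with the replicate block an unadjusted p of 0.00858 and an adjusted p of 0.384. It did not pass the threshold over all genes.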

How the results depend on the processing

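Of the 10 lymphoid genes, 0 were called in IkNull/OP9 against IkWT/OP9 and 2 in IkNull/OP9-DL1 against IkWT/OP9-DL1. On OP9 the count was 3 with no minimum mean (Rag1, Rag2 and Pax5), and 0 to 1 with libraries or cultures left out. On OP9-DL1 it was 1 with no minimum, with a minimum mean of 20 (which only Il7r passed), with rescaling to the same total, with only the 2 groups compared and with DESeq2, 0 with edgeR on recovered reads and with edgeR on genes with at least 10 reads, and 0 to 2 with libraries or cultures left out. Rescaling to the same total moved the median difference of all genes to -0.21 on OP9 and -0.26 on OP9-DL1, and Il7r then missed the threshold on OP9-DL1 (2.71, adjusted p = 0.0756). Over all genes, 1310 were called on OP9 and 1935 on OP9-DL1. The count was 785 and 1220 with edgeR, 733 and 1154 with edgeR on genes with at least 10 reads, 1086 on OP9-DL1 with only the 2 groups compared, 458 to 2333 and 656 to 3349 with libraries or cultures left out, and 2375 on OP9 with the replicate block. Between stromas it went from 1 to 202 in IkWT and from 2 to 101 in IkNull cells with the block. No called direction of Il7r, Cd247 or Ebf1 reversed. The edgeR fit on genes with at least 10 reads and the block without a minimum were chosen after seeing the data. With libraries or cultures left out, 0 of the 10 genes were called between stromas or in the interaction, and over all genes 0 to 3 were called between stromas in IkWT cells, 2 in IkNull cells and 0 in the interaction.

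With the replicate number as a block, which pairs the genotypes through the shared numbers 1 and 3, 1 gene was called on OP9, namely Il7r (1.89, adjusted p = 0.00353), Il7r and Cd247 on OP9-DL1, where over all genes 2140 were higher and 737 lower, and 1 in IkWT/OP9-DL1 against IkWT/OP9, again Il7r. With the block and no minimum, 3 were called on OP9 (Il7r, Rag1 and Pax5; 2325 over all genes) and 1 between stromas in IkWT cells (81 over all genes). For these numbers, libraries of the genotypes on the same stroma correlated at 0.20 to 0.48, against -0.43 to 0.23 for different numbers. The block changed no other call on the tested genes. The causes of these changes were not tested. Depth limits the genes other than Il7r, Cd247 and Ebf1, which had 66 reads or fewer over 10 libraries. For Rag2, Pax5 and Dntt, at 0 in IkNull cells, a loss cannot be told from a level under the floor. Rag1, Cd3g and Tcf7 had 2, 2 and 11 reads in IkNull cells, few but not absent. Depth also limits Cd247 in IkNull cells, with 14 reads on OP9 and 4 on OP9-DL1.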
